A study of Mus musculus with 6 samples.

Results

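The genes described here are the chemokines, small secreted proteins that attract leukocytes, and their receptors. They were all genes whose probe sets carried a single symbol beginning with Ccl, Ccr, Cxcl, Cxcr, Ackr, Xcl or Xcr and a number, or the symbols Cx3cl1 and Cx3cr1. The platelet chemokines Pf4 and Ppbp lay outside that rule. It gave 54 of the 18193 genes measured, 33 of them ligands and 21 receptors. The study measured messenger RNA on 6 Affymetrix arrays of lineage-negative Kit+ Sca1+ (LSK) cells, the bone marrow fraction that holds blood stem cells and multipotent progenitors, from mice 10 to 14 weeks old. The series asked which expression changes accompany the functional differences between LSK subpopulations, and split them by CD34 and Flt3 into CD34+Flt3hi, CD34+Flt3- and CD34-Flt3- cells, with 2 arrays each. All 3 fractions shared the LSK gate, and no genotype or treatment was given for any of them. In mice, CD34-Flt3- LSK cells hold most long-term repopulating stem cells, and CD34+Flt3hi LSK cells are multipotent progenitors with lymphoid and myeloid potential.

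Chemokines bind G protein-coupled receptors on leukocytes and steer their movement along concentration gradients. In bone marrow, Cxcl12 made by stromal cells holds stem cells and progenitors in place through Cxcr4, while inflammatory CC and CXC chemokines, made mostly by activated myeloid and lymphoid cells, act on mature leukocytes. Atypical receptors, named Ackr, bind chemokines without the usual G protein signal and scavenge or transport them.

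The promoters of 3 ligand genes whose RNA differed between the fractions are shown because the results turn on them. Each runs from 250 bases before to 50 bases after the start of transcription, 5′ to 3′ on the gene's own strand, from RefSeq on GRCm38.p6. Ccl3 lay at chr11:83649329-83649628 and Ccl9 at chr11:83578587-83578886, both on the minus strand, and Cxcl2 at chr5:90903649-90903948 on the plus strand. Capitals mark matches on either strand to 5 motifs, which were TATAAA for the TATA box, TGANTCA for AP-1, GGAAGT for ETS factors, TGTGGT for RUNX factors and GGGANTT for the first bases of a common NF-kB site.
Ccl3: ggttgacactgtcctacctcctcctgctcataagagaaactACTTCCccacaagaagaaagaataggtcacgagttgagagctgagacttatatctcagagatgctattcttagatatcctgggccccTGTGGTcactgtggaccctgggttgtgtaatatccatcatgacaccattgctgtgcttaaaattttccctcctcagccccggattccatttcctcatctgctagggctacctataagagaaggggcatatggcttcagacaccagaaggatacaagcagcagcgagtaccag
Ccl9: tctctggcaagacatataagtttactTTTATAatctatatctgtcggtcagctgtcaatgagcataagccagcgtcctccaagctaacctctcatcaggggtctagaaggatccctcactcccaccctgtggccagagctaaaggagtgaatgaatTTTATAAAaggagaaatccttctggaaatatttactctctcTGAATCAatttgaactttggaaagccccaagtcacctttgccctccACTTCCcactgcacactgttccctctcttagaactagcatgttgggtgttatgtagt
Cxcl2: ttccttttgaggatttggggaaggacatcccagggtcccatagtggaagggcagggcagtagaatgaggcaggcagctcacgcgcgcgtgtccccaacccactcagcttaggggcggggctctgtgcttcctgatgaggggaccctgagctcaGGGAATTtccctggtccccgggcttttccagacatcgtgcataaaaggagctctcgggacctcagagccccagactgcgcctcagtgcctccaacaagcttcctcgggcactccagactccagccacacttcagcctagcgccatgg
The Ccl3 window held an ETS match at -209 to -204 from the start and a RUNX match at -122 to -117. The Ccl9 window held TATAAA matches at -224 to -219, -94 to -89 and -92 to -87, the last 2 of which overlap, an AP-1 match at -53 to -47 and an ETS match at -7 to -2. The Cxcl2 window held a single match, GGGAATT at -97 to -91. The window of the receptor gene Ccr9, whose RNA also differed, is not shown and held no match to the 5 motifs. No window was available for the ligand gene Ccl4, which differed too. Of all 32851 promoter windows of the same length, 13.6% held TATAAA, 7.81% held TGANTCA, 23.8% held GGAAGT, 16.8% held TGTGGT and 16.5% held GGGANTT. Of 45 windows of 41 chemokine and receptor genes, 31.1%, 17.8%, 42.2%, 26.7% and 33.3% held the same 5 motifs in that order. A match describes the letters and not a bound site.

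Values below are log2 of the deposited intensity, so a difference of 1 is 2-fold. Array medians ranged between 29.7 and 31.4 on the linear scale. A gene counted as above background in a fraction where its mean exceeded 4.50, the 90th percentile of 27 unspiked bacterial control probe sets. The sort itself was visible, since Cd34 and Flt3 passed the test as higher in CD34+Flt3hi cells than in CD34-Flt3- cells, and Kit was above background in every fraction, while Ly6a (Sca1) was not analysed here. Each array title ends in a code that no label explains, and the codes are written here as A, B and C. Code A stands on replicate 2 of each fraction, code B on replicate 1 of CD34+Flt3hi and CD34+Flt3- cells, and code C on replicate 1 of CD34-Flt3- cells. Whether the 2 arrays of a fraction came from separate mice or sorts is not given, so the p-values measure the spread between arrays, which may be technical. In sorted pools, fewer cells making a transcript and less of it per cell cannot be told apart.

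Of the 54 genes, 39 were above background in at least 1 fraction, against 77.5% of all genes, and 15 in none. The number above background was 37 in CD34+Flt3hi cells and 33 in each of the other fractions. With the highest control probe set (5.35) as background, 20 of the 54 were above it in at least 1 fraction.

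**Figure D1:**
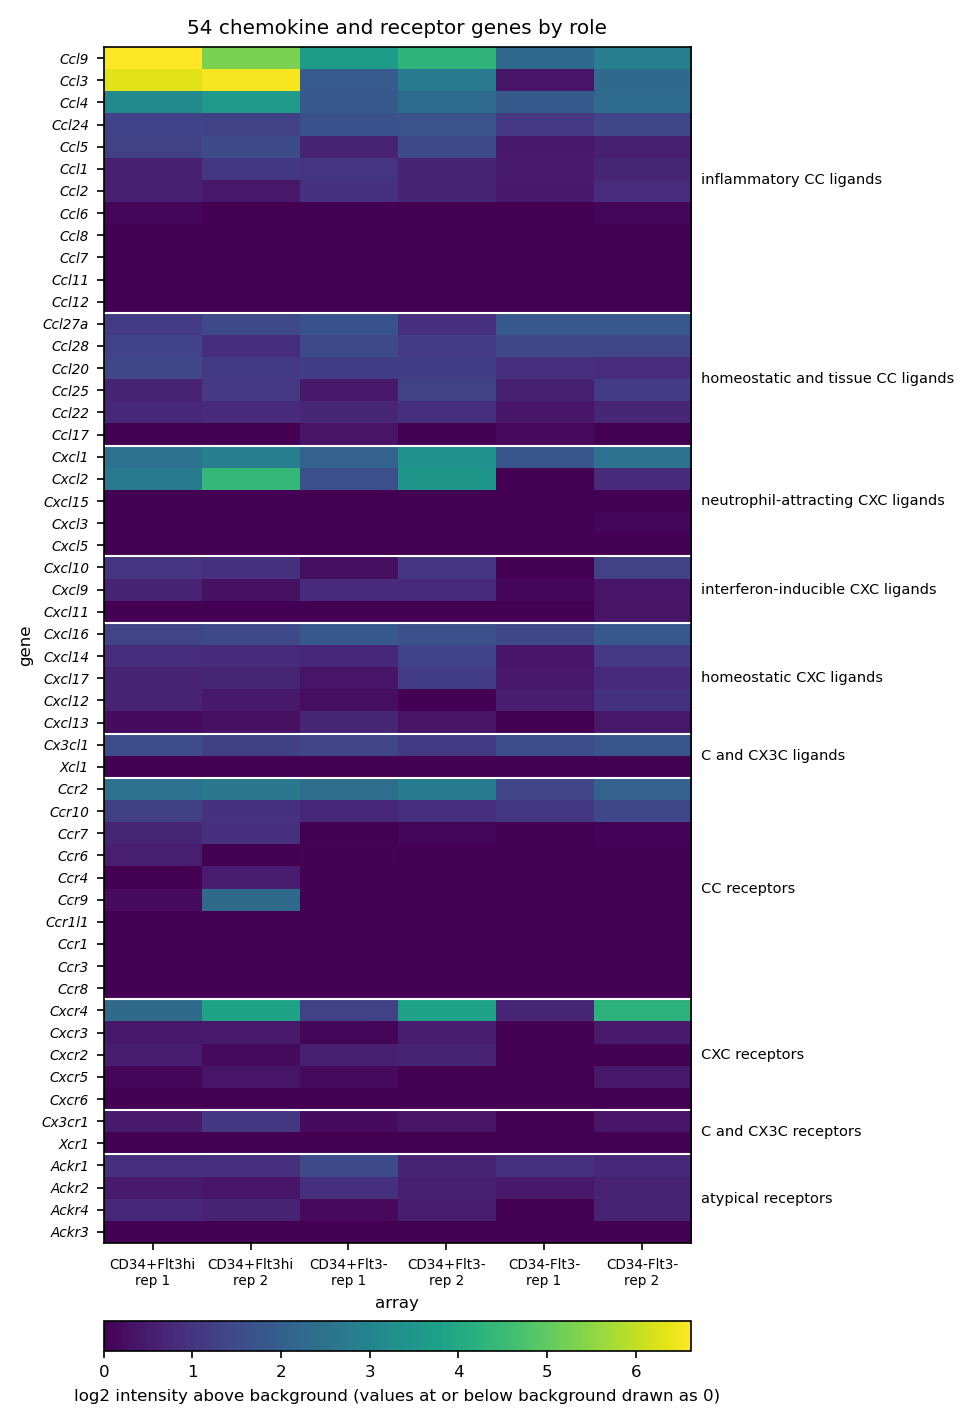
Log2 intensity above the background of 4.50 for each of the 54 chemokine and receptor genes (rows, grouped by role) on the 6 arrays (columns), with values at or below background drawn as 0. Brighter colours mark Ccl9, Ccl3 and Ccl4 on the CD34+Flt3hi arrays and Cxcr4 on replicate 2 of each fraction, and 15 genes are at background in the mean of every fraction.

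By the brightest probe set of each gene, CD34+Flt3hi cells held more RNA of 4 inflammatory chemokines and 1 homing receptor than CD34-Flt3- cells did. No gene of the family passed as lower by that probe set. Another probe set of Cx3cl1 did when every probe set was fitted singly (-1.44, limma adjusted p = 0.0159). The receptor's call rests on a single probe set whose name marks possible cross-hybridisation, and it was kept in 8 of 18 alternative settings. The ligands were Ccl3, Ccl9, Cxcl2 and Ccl4, by 34.7-fold, 10.8-fold, 9.30-fold and 2.39-fold, and the receptor was Ccr9, by at least 2.37-fold with both CD34+Flt3hi arrays and at least 1.14-fold without replicate 2. By limma with Benjamini-Hochberg adjustment over all genes, these were 5 of 54 genes at an adjusted p under 0.05, and 6.11% of all genes passed in either direction, 2.62% as higher and 3.5% as lower. Only Ccl3 passed between CD34+Flt3hi and CD34+Flt3- cells, where 0.61% of all genes did, 0.385% as higher and 0.225% as lower. Between CD34+Flt3- and CD34-Flt3- cells, 0 of 54 passed by limma, against 2.1% of all genes (0.77% as higher and 1.33% as lower), and 8 of 54 had an unadjusted p under 0.05. Codes A and B each stand on an array of both CD34+Flt3hi and CD34+Flt3- cells. With all title codes as a block, Ccl4, Ccl9, Ccr7, Ccr9 and Cxcl2 passed beside Ccl3 between these fractions (3.68% of all genes did), and with code A against the rest as a block Ccl4, Ccl9 and Ccr9 did (1.51%). Between CD34+Flt3- and CD34-Flt3- cells, Cxcl2 was higher and Cxcl3 and Ccl11 lower with all codes as a block (8.68% of all genes passed), and Cxcl2 and Ccl9 were higher and Cxcl3 lower with code A as a block (6.11%). Cxcl3 and Ccl11 were below background in the mean of every fraction. The block of all codes left 1 residual degree of freedom and the block of code A left 2. Without a block, the members' shares at an unadjusted p under 0.05 were 16.7%, 9.26% and 14.8% in those 3 comparisons, against 18.3%, 6.76% and 16.9% of all genes. The median difference over the 54 genes was 0.11, 0.10 and 0.06, against -0.07, 0.03 and -0.10 over all genes.

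**Figure D2:**
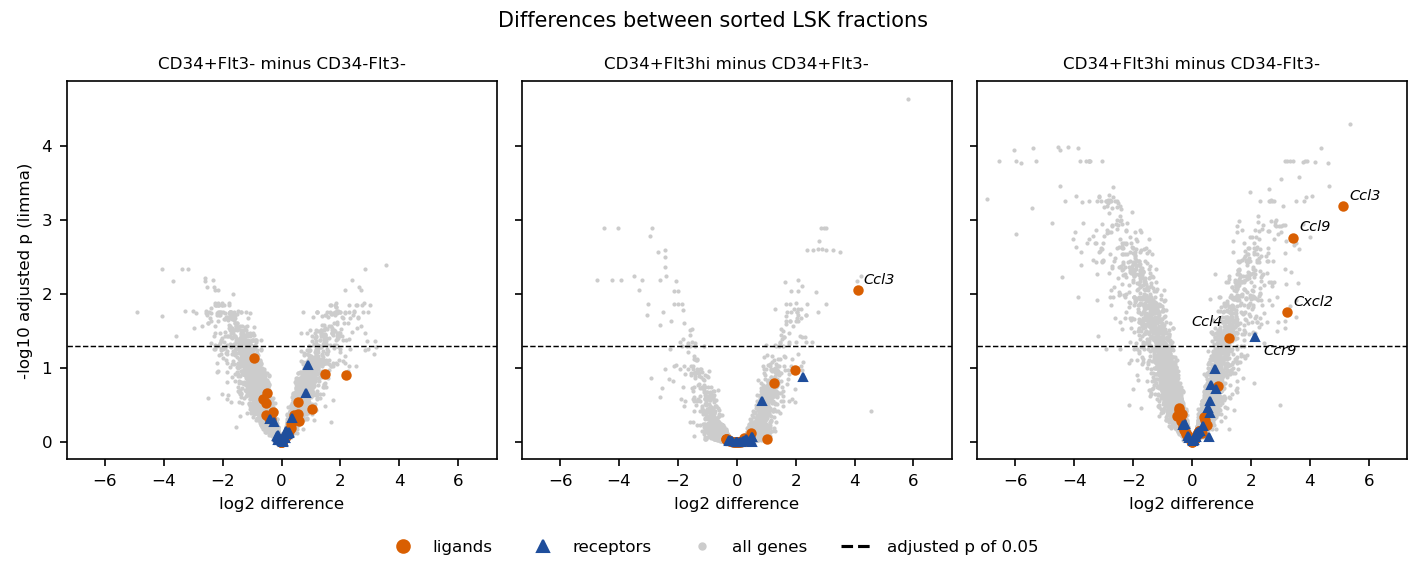
Log2 difference (x axis) against -log10 of the limma adjusted p (y axis) for all 18193 genes in each comparison, with the 33 ligands and 21 receptors coloured. The 5 labelled genes lie above the 0.05 line on the right of the comparison of CD34+Flt3hi with CD34-Flt3- cells.

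Among the inflammatory CC ligands, Ccl3 (Entrez gene 20302), a ligand of Ccr1 known as an inhibitor of blood stem and progenitor cell proliferation, showed the widest gap between fractions of the 54 genes. It read 10.83 and 11.03 in CD34+Flt3hi cells, 6.40 and 7.26 in CD34+Flt3- cells, and 4.87 and 6.76 in CD34-Flt3- cells. Both CD34+Flt3hi arrays were above all others, and the other fractions overlapped. The code A array was the higher one in each fraction, by 0.21, 0.86 and 1.89. The means were 10.93 ± 0.15 in CD34+Flt3hi cells, against 6.83 ± 0.60 in CD34+Flt3- cells and 5.81 ± 1.34 in CD34-Flt3- cells (SD, n = 2 each). Ccl3 was 34.7-fold higher in CD34+Flt3hi cells than in CD34-Flt3- cells (5.12 ± 0.53 SE, limma adjusted p = 0.00064). Within the code A arrays the difference was 4.28. Against CD34+Flt3- cells it was 17.1-fold higher (4.10 ± 0.53 SE, limma adjusted p = 0.0087), by 3.78 within code A and by 4.42 within code B. That second call was lost without CD34+Flt3hi replicate 1 (adjusted p = 0.0674), CD34+Flt3hi replicate 2 (0.0958) or CD34+Flt3- replicate 1 (0.167). CD34+Flt3- cells differed from CD34-Flt3- cells by 1.02 (limma adjusted p = 0.363). The step to CD34+Flt3hi exceeded the step to CD34+Flt3- by 3.08 ± 0.92 SE, which did not pass the test (limma adjusted p = 0.404, where 0.0275% of all genes passed).

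Ccl9 (Entrez gene 20308), a mouse CC chemokine that acts on Ccr1 and is made by myeloid cells, was graded across the fractions. It read 11.12 and 9.79 in CD34+Flt3hi cells, 8.14 and 8.82 in CD34+Flt3- cells, and 6.71 and 7.33 in CD34-Flt3- cells, with no overlap between fractions. CD34+Flt3hi cells were 10.8-fold above CD34-Flt3- cells (3.44 ± 0.43 SE, limma adjusted p = 0.0017), and the difference was 2.46 within code A. The differences of the single steps were 1.98 for CD34+Flt3hi minus CD34+Flt3- (limma adjusted p = 0.107, and 0.0169 with code A as a block) and 1.46 for CD34+Flt3- minus CD34-Flt3- (limma adjusted p = 0.121, and 0.0388 with that block). The first of these was 0.97 within code A and 2.98 within code B, so its size depended on the array pair. A second probe set of Ccl9 read 6.21 and 5.07 in CD34+Flt3hi cells, 4.72 and 4.64 in CD34+Flt3- cells, and 4.10 and 4.12, below background, in CD34-Flt3- cells. It also passed between CD34+Flt3hi and CD34-Flt3- cells (1.53, limma adjusted p = 0.0402, with every probe set fitted singly, where 4.13% passed).

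Ccl4 (Entrez gene 20303), a CC chemokine that activated leukocytes often make together with Ccl3, separated less. It read 7.67 and 8.06 in CD34+Flt3hi cells, 6.35 and 6.82 in CD34+Flt3- cells, and 6.38 and 6.83 in CD34-Flt3- cells. CD34+Flt3hi arrays were above the rest, and the other fractions overlapped closely. The difference from CD34-Flt3- cells was 1.26 ± 0.31 SE, or 2.39-fold (limma adjusted p = 0.0394), and 1.23 within code A. The difference stayed between 1.04 and 1.48 in all 19 alternative settings, and it missed the threshold in 7 of them. Without CD34+Flt3hi replicate 1 it was 1.45 (adjusted p = 0.175), and without CD34+Flt3hi replicate 2 it was 1.06 (adjusted p = 0.370). The call was also lost without either CD34+Flt3- array (0.0563 and 0.0577) or CD34-Flt3- replicate 1 (0.0704). Against CD34+Flt3- cells the difference was 1.27 (limma adjusted p = 0.16, and 0.0308 with code A as a block), and it was 1.24 within code A and 1.31 within code B.

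The other 9 inflammatory CC ligands did not pass in any comparison without a block. Of all 12, 8 were above background in at least 1 fraction, and the eotaxin Ccl11 and the monocyte attractants Ccl7, Ccl8 and Ccl12 were in none. Ccl5, which attracts T cells and monocytes, read 5.79 and 6.01 in CD34+Flt3hi cells, 5.12 and 6.03 in CD34+Flt3- cells, and 4.95 and 5.08 in CD34-Flt3- cells. Its difference between CD34+Flt3hi and CD34-Flt3- cells was 0.89 (limma adjusted p = 0.173). Ccl5 passed there with all title codes as a block (1.10), a fit in which CD34-Flt3- cells rest on replicate 2 alone.

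Among the 5 neutrophil-attracting CXC ligands, which act on Cxcr2, Cxcl2 and Cxcl1 were above background. Cxcl2 (Entrez gene 20310) read 7.24 and 8.92 in CD34+Flt3hi cells, 6.11 and 7.99 in CD34+Flt3- cells, and 4.46 and 5.28 in CD34-Flt3- cells. Both CD34+ fractions were above CD34-Flt3- cells and overlapped each other, and the code A array was the higher one in each fraction, by 1.68, 1.89 and 0.82. Cxcl2 was 9.30-fold higher in CD34+Flt3hi cells than in CD34-Flt3- cells (3.22 ± 0.65 SE, limma adjusted p = 0.0174), by 3.65 within code A. The call was lost without CD34+Flt3hi replicate 2 (2.38, adjusted p = 0.159). CD34+Flt3- cells differed from CD34-Flt3- cells by 2.18 (limma adjusted p = 0.124, and 0.0015 with code A as a block), and CD34+Flt3hi from CD34+Flt3- cells by 1.03 (limma adjusted p = 0.903, and 0.188 with that block). Cxcl1 (Entrez gene 14825) read 6.98 and 7.33 in CD34+Flt3hi cells, 6.59 and 7.85 in CD34+Flt3- cells, and 6.28 and 6.97 in CD34-Flt3- cells. Its fractions overlapped, and its difference between CD34+Flt3hi and CD34-Flt3- cells was 0.52 (limma adjusted p = 0.583). That reading comes from a probe set whose name marks possible cross-hybridisation, and the only Cxcl1 probe set not marked in that way was below background on every array and differed by -0.45.

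**Figure D3:**
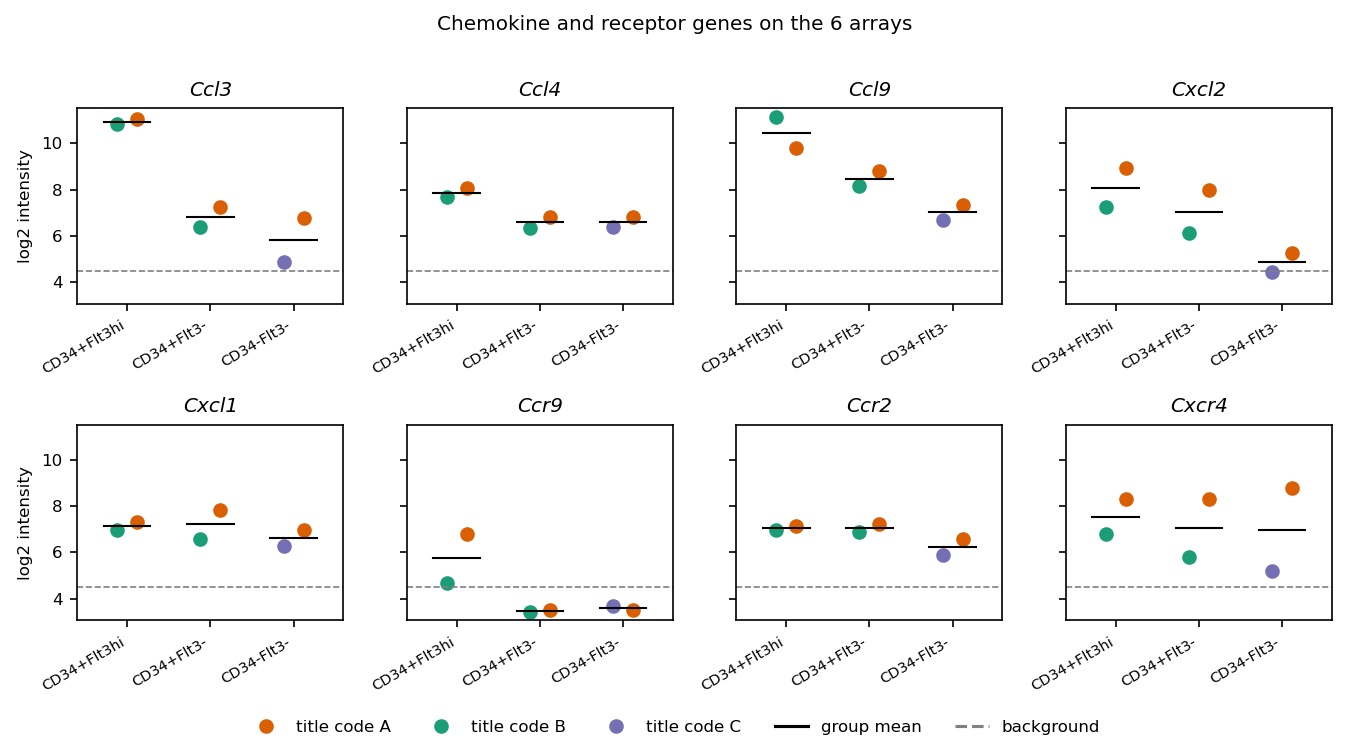
Log2 intensity on each array of the 8 genes described singly, by fraction, with the background of 4.50 marked. Ccl3, Ccl9 and Ccl4 are higher on both CD34+Flt3hi arrays than on any other array, and the 2 arrays of a fraction lie far apart for Cxcr4.

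No ligand of the remaining roles passed in any comparison. All 6 homeostatic and tissue CC ligands, among them the thymus chemokine Ccl25, were above background in at least 1 fraction, and their largest difference between fractions was 0.53. The 5 homeostatic CXC ligands were above background in every fraction, with differences of up to 0.62. Cxcl12 read 5.14 and 4.94 in CD34+Flt3hi cells, 4.75 and 4.49 in CD34+Flt3- cells, and 5.02 and 5.46 in CD34-Flt3- cells. The 3 interferon-inducible ligands Cxcl9, Cxcl10 and Cxcl11 were each above background in at least 1 fraction, with differences of up to 0.57. Of the C and CX3C ligands, Cx3cl1 was above background and Xcl1 was not.

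The gene order in RefSeq placed 3 of the 4 higher ligands in a single run of neighbours. Ccl5, Ccl9, Ccl6, Ccl3 and Ccl4 are direct neighbours on chromosome 11, and 3 of these 5 were higher in CD34+Flt3hi cells than in CD34-Flt3- cells. Ccl6, between Ccl9 and Ccl3, stayed close to background, at 4.60 and 4.48 in CD34+Flt3hi cells, 4.39 and 4.16 in CD34+Flt3- cells, and 3.55 and 4.61 in CD34-Flt3- cells. None of Ccl2, Ccl7, Ccl11, Ccl12, Ccl8 and Ccl1, another run of neighbours on chromosome 11, passed in any comparison without a block. On chromosome 5, Cxcl2 was the only one of the 5 members in its run that passed without a block, and Cxcl1 beside it did not.

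**Figure D4:**
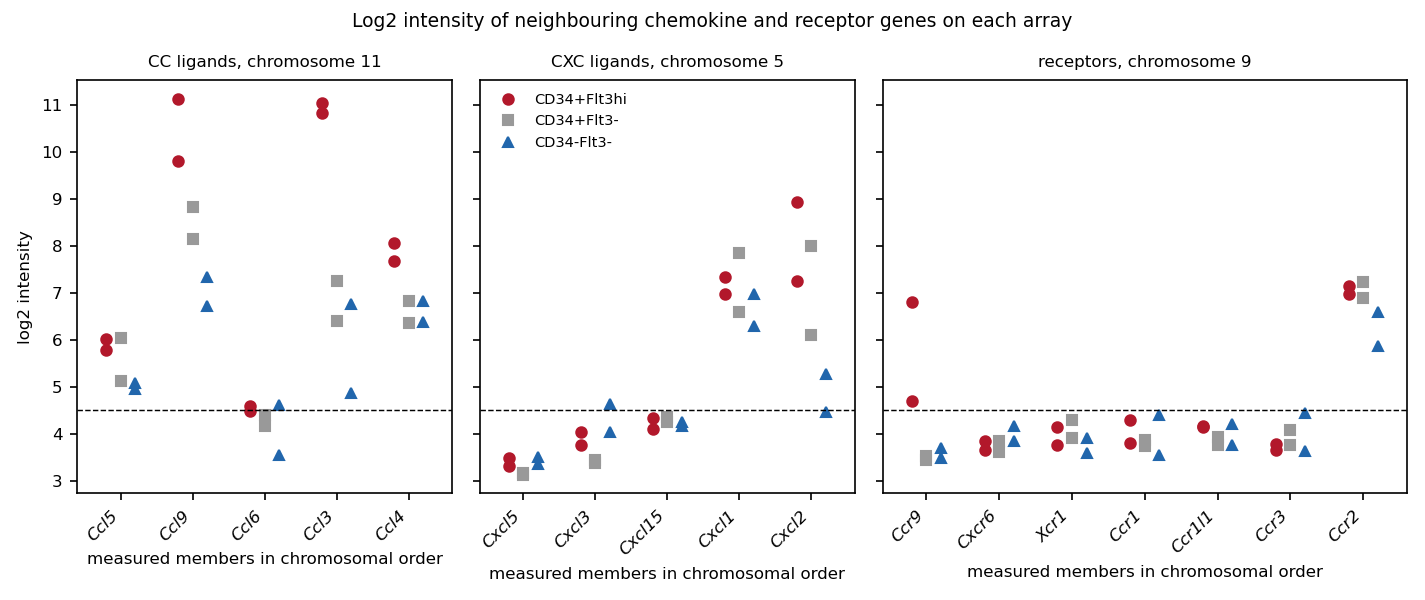
Log2 intensity on each array of neighbouring CC ligand genes (chromosome 11), CXC ligand genes (chromosome 5) and receptor genes (chromosome 9), in chromosomal order, with the background of 4.50 marked. Ccl9, Ccl3 and Ccl4 are highest on the CD34+Flt3hi arrays, and Ccl6 between them is near background. Genes outside the rule or not analysed here are left out of the order.

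Of the 10 CC receptors, 6 were above background in at least 1 fraction, against 77.5% of all genes. The count was 6 in CD34+Flt3hi cells and 2 in each of the other fractions, and it rests partly on readings near the cut of 4.50. Ccr6 read 5.04 and 4.20 in CD34+Flt3hi cells, and Ccr7 read 4.43 and 4.56 in CD34-Flt3- cells. Ccr9 (Entrez gene 12769), the Ccl25 receptor that guides progenitors to the thymus and lymphocytes to the gut, was the only receptor called without a block. It read 4.69 and 6.79 in CD34+Flt3hi cells, 3.45 and 3.53 in CD34+Flt3- cells, and 3.70 and 3.49 in CD34-Flt3- cells. The CD34+Flt3hi arrays were above all others but differed widely from each other. Ccr9 was at least 2.37-fold higher in CD34+Flt3hi cells than the background level in CD34-Flt3- cells, with a measured difference of 2.15 ± 0.52 SE (limma adjusted p = 0.0375) and 3.30 within code A. Against CD34+Flt3- cells the measured difference was 2.25 (limma adjusted p = 0.132, and 0.0107 with code A as a block). Without CD34+Flt3hi replicate 2, the bound against CD34-Flt3- cells was 1.14-fold and the measured difference 1.09. The reading rests on 1 of 5 Ccr9 probe sets, whose name marks possible cross-hybridisation, and the other 4 differed by -0.11, 0.78, -0.17 and 0.21. The call was lost in 9 of 18 alternative settings, among them without CD34+Flt3hi replicate 2, either CD34+Flt3- array or CD34-Flt3- replicate 2, and its sign turned in a further setting, without probe sets marked in that way (-0.17, adjusted p = 0.823).

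Ccr2 (Entrez gene 12772), the receptor through which monocytes leave the marrow, read 6.97 and 7.14 in CD34+Flt3hi cells, 6.88 and 7.23 in CD34+Flt3- cells, and 5.88 and 6.58 in CD34-Flt3- cells. Both CD34+ fractions were above CD34-Flt3- cells. The differences were 0.82 for CD34+Flt3hi minus CD34-Flt3- (limma adjusted p = 0.19) and 0.82 for CD34+Flt3- minus CD34-Flt3- (limma adjusted p = 0.22). Ccr2 has 4 probe sets, and these values come from the brightest. The others had means over all arrays of 4.30, 3.89 and 4.30, below background. They differed by 0.06, -0.11 and 0.09 between CD34+Flt3hi and CD34-Flt3- cells. Between CD34+Flt3- and CD34-Flt3- cells they differed by 0.24, -0.32 and -0.43. Ccr7, the receptor that guides cells to lymph nodes and, in mice, progenitors to the thymus, read 5.17 and 5.38 in CD34+Flt3hi cells, 4.24 and 4.62 in CD34+Flt3- cells, and 4.43 and 4.56 in CD34-Flt3- cells. CD34+Flt3hi arrays were above all others, with differences of 0.85 from CD34+Flt3- cells (limma adjusted p = 0.276) and 0.78 from CD34-Flt3- cells (limma adjusted p = 0.102). Ccr1, the receptor for Ccl3 and Ccl9, and the receptors Ccr3 and Ccr8 were at background in all fractions.

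Cxcr4 (Entrez gene 12767), the Cxcl12 receptor that retains cells in bone marrow, varied between arrays within every fraction. It read 6.78 and 8.31 in CD34+Flt3hi cells, 5.79 and 8.29 in CD34+Flt3- cells, and 5.20 and 8.76 in CD34-Flt3- cells. The higher array was the code A array in all 3 fractions, by 1.53, 2.50 and 3.57, and the fractions overlapped. The difference between CD34+Flt3hi and CD34-Flt3- cells was 0.56 ± 1.07 SE (limma adjusted p = 0.848), and within code A it was -0.46. Tested as code A minus the other codes, with the fractions as covariates, Cxcr4 differed by 2.53 ± 0.31 SE (limma adjusted p = 0.00573). That test was added after the values were seen and called 0.033% of all genes, and no other chemokine or receptor gene. Cxcr4 was also the only one of the 54 that was higher by at least 1 in the code A array of every fraction, which 0.033% of all genes were. Of the 54 genes, 17 were higher in the code A array of every fraction, against 11.7% of all genes.

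**Figure D5:**
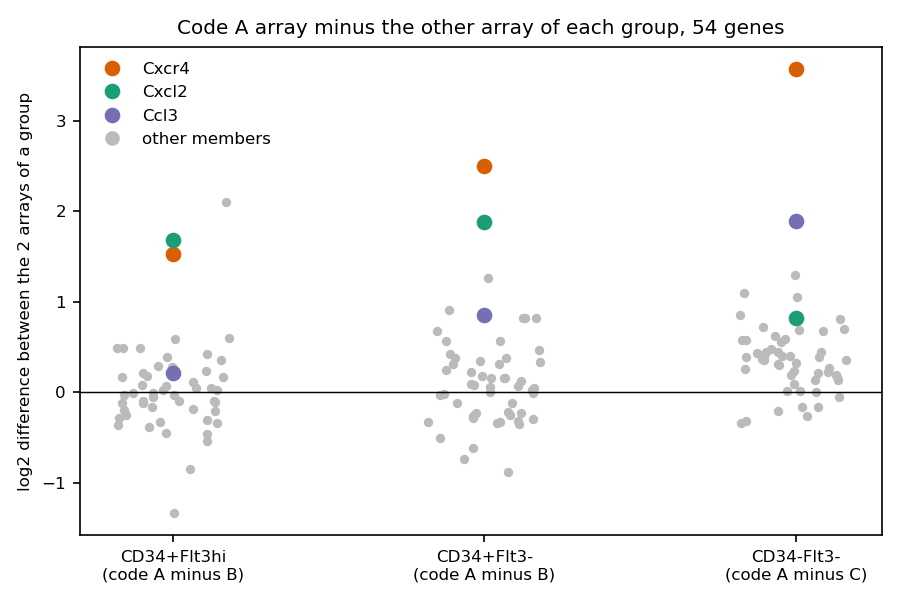
Log2 difference between the 2 arrays of each fraction (code A minus code B, or minus code C in CD34-Flt3- cells) for the 54 genes. Cxcr4 is above 1.5 in every fraction, Cxcl2 and Ccl3 are above 0 in every fraction, and most of the other genes lie above 0 in CD34-Flt3- cells and on both sides of 0 in the other fractions.

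Of the 5 CXC receptors, 4 were above background in at least 1 fraction and none passed in any comparison. Cxcr2, the receptor for Cxcl1 and Cxcl2 on neutrophils, read 5.02 and 4.68 in CD34+Flt3hi cells, 5.07 and 5.14 in CD34+Flt3- cells, and 4.06 and 4.33 in CD34-Flt3- cells. Both CD34+ fractions were above CD34-Flt3- cells, and CD34+Flt3- minus CD34-Flt3- was 0.91 (limma adjusted p = 0.09). Cx3cr1, the fractalkine receptor of monocytes, differed by 0.62 between CD34+Flt3hi and CD34-Flt3- cells, and Xcr1 was at background. Of the 4 atypical receptors, 3 were above background, with differences between fractions of up to 0.61, and Ackr3, which scavenges Cxcl12, was not. Without overlap between arrays, 15 of the 54 genes were higher and 8 lower in CD34+Flt3hi cells than in CD34-Flt3- cells, against 18.8% and 29.1% of all genes. Likewise 14 were higher and 7 lower in CD34+Flt3hi cells than in CD34+Flt3- cells (22.7% and 17.7% of all genes), and 10 were higher and 9 lower in CD34+Flt3- cells than in CD34-Flt3- cells (15.6% and 28.6%).

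Genes that carry the signal of chemokine receptors inside the cell were called at a share close to that of all genes between CD34+Flt3hi and CD34-Flt3- cells. Brackets give the log2 difference and then the limma adjusted p. Of 81 measured, 3 rose and 3 fell in CD34+Flt3hi against CD34-Flt3- cells, where 6.11% of all genes passed. Rgs10 (1.52, limma adjusted p = 0.0083) and Rgs19 (1.01, 0.0441), which switch off G protein alpha subunits, and Vav3 (1.20, 0.0204), a guanine nucleotide exchange factor, rose. The G protein gamma subunit Gng11 read 5.87 and 5.99 in CD34+Flt3hi cells, 8.87 and 8.73 in CD34+Flt3- cells, and 9.69 and 9.94 in CD34-Flt3- cells. Gng11 fell against CD34-Flt3- cells (-3.88, limma adjusted p = 0.00011) and, as the only gene of this list, against CD34+Flt3- cells (-2.87, 0.0013). The beta-arrestin gene Arrb1 (-1.18, 0.0338) and the kinase gene Ptk2b (-0.96, 0.0441) also fell against CD34-Flt3- cells. Between CD34+Flt3- and CD34-Flt3- cells 0 of 81 passed by limma, with 14 at an unadjusted p under 0.05 (17.3%, against 16.9% of all genes). At that unadjusted level the share was 25.9% between CD34+Flt3hi and CD34-Flt3- cells, against 18.3% of all genes. It was 12.3% between CD34+Flt3hi and CD34+Flt3- cells, against 6.76%. The list's median difference was -0.04 between CD34+Flt3hi and CD34-Flt3- cells, 0.12 between CD34+Flt3hi and CD34+Flt3- cells, and -0.16 in the remaining comparison, against -0.07, 0.03 and -0.10 over all genes.

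Receptors for other chemoattractants numbered 21 measured. Of these, 2 rose and 1 fell in CD34+Flt3hi against CD34-Flt3- cells (6.11% of all genes passed), 1 rose against CD34+Flt3- cells (0.61%), and 2 fell in CD34+Flt3- against CD34-Flt3- cells (2.1%). P2ry14, a receptor for UDP-glucose, read 9.89 and 9.81 in CD34+Flt3hi cells, 8.09 and 8.25 in CD34+Flt3- cells, and 7.29 and 7.16 in CD34-Flt3- cells. It rose in CD34+Flt3hi cells against CD34-Flt3- cells (2.63, limma adjusted p = 0.00037) and against CD34+Flt3- cells (1.68, 0.0135). S1pr3, a sphingosine 1-phosphate receptor, was at least 3.82-fold higher in CD34+Flt3hi cells than in CD34-Flt3- cells, where it was at background (limma adjusted p = 0.0031). S1pr4, of the same receptor family, was below its CD34-Flt3- level in CD34+Flt3hi cells (-1.19, limma adjusted p = 0.0163) and likewise in CD34+Flt3- cells (-1.13, 0.0434). The prostaglandin receptor gene Ptger4 fell in CD34+Flt3- against CD34-Flt3- cells (-1.34, limma adjusted p = 0.049).

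A list drawn up for genes that cleave, modify or anchor chemokines held 20 measured genes, and Cd74 was on it without such a role. In CD34+Flt3hi against CD34-Flt3- cells 2 rose and 2 fell (6.11% of all genes passed), and in CD34+Flt3- against CD34-Flt3- cells 1 rose and 3 fell (2.1%). Cathepsin G (Ctsg), a granule protease, rose in CD34+Flt3hi (3.19, limma adjusted p = 0.0019) and in CD34+Flt3- cells (3.01, 0.0141) against CD34-Flt3- cells. Mmp14, a membrane metalloprotease, fell in CD34+Flt3hi (-3.17, 0.00047) and in CD34+Flt3- cells (-2.24, 0.0141). Cd44, a hyaluronan receptor, rose (1.57, 0.0077) and the sulfotransferase gene Tpst2 fell (-1.09, 0.0285) in CD34+Flt3hi cells against CD34-Flt3- cells. The syndecan Sdc4 was at least 4.3-fold lower (limma adjusted p = 0.0141) and Cd74 fell (-1.69, 0.0306) in CD34+Flt3- against CD34-Flt3- cells. Between CD34+Flt3hi and CD34+Flt3- cells 0 of 20 passed by limma, with 6 at an unadjusted p under 0.05 (30%, against 6.76% of all genes). Of the platelet chemokines and non-chemokine ligands, 3 measured, Pf4 fell in CD34+Flt3hi cells to background, at least 8.37-fold below CD34+Flt3- cells (limma adjusted p = 0.0064) and at least 7.39-fold below CD34-Flt3- cells (0.0020).

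Markers of other cell types were set beside the results. For the calls below, 2.62% of all genes passed as higher and 3.5% as lower in CD34+Flt3hi against CD34-Flt3- cells. In CD34+Flt3hi against CD34+Flt3- cells 0.385% passed as higher and 0.225% as lower. In CD34+Flt3- against CD34-Flt3- cells the shares were 0.77% and 1.33%. The summed linear intensity of 11 neutrophil and monocyte markers was 1642 and 1301 in CD34+Flt3hi cells, 1326 and 1333 in CD34+Flt3- cells, and 1300.0 and 1364 in CD34-Flt3- cells. Of these, Itgam, Lcn2, Ltf, S100a8 and S100a9 were below background in all fractions, and Camp, Cd14, Csf1r, Fcnb, Lyz2 and Ngp were above it in at least 1. Of those 11, Csf1r alone passed, higher in CD34+Flt3hi cells than in CD34-Flt3- cells (3.16, limma adjusted p = 0.0012) and than in CD34+Flt3- cells (2.03, 0.0447). The sum of 10 macrophage markers was 351 and 294 in CD34+Flt3hi cells, 246 and 286 in CD34+Flt3- cells, and 199 and 239 in CD34-Flt3- cells, with C1qa, C1qb, Cd5l and Mrc1 below background in all fractions. In CD34+Flt3hi against CD34-Flt3- cells, 2 of these 10 rose, Cd163 by at least 1.61-fold (limma adjusted p = 0.0013) and Cd68 by 1.52 on the log2 scale (0.0393). Against CD34+Flt3- cells, Cd163 also rose, by at least 1.61-fold (limma adjusted p = 0.0068). The sum of 8 dendritic cell markers, Ccr9 among them, was 403 and 436 in CD34+Flt3hi cells, 321 and 325 in CD34+Flt3- cells, and 367 and 313 in CD34-Flt3- cells, with Cd209a and Xcr1 below background, and Ccr9 was the only one of them that passed. The sum of 11 T and NK cell markers was 1057 and 1072 in CD34+Flt3hi cells, 1453 and 1504 in CD34+Flt3- cells, and 503 and 669 in CD34-Flt3- cells, with Cd2 and Cd3g below background in all fractions. Of these 11, only the granule gene Nkg7 passed, higher in CD34+Flt3hi cells (1.61, limma adjusted p = 0.0053) and in CD34+Flt3- cells (2.15, 0.0088) against CD34-Flt3- cells. Of 6 megakaryocyte and platelet markers, Pf4 among them, 5 fell in CD34+Flt3hi against CD34-Flt3- cells and 2 against CD34+Flt3- cells, and 1 fell in CD34+Flt3- against CD34-Flt3- cells. Their sum was 268 and 214 in CD34+Flt3hi cells, 2189 and 969 in CD34+Flt3- cells, and 3272 and 3435 in CD34-Flt3- cells, with Ppbp below background. Of 7 erythroid markers, 3 fell in CD34+Flt3hi against CD34-Flt3- cells, and their sum was 337 and 324 in CD34+Flt3hi cells, 934 and 549 in CD34+Flt3- cells, and 3115 and 791 in CD34-Flt3- cells, with Slc4a1 below background. Of 7 B lineage markers 0 passed in any comparison. Of 7 mast cell, basophil and eosinophil markers 1 fell in CD34+Flt3hi cells against each of the other fractions. Of 10 stromal and endothelial markers, Cxcl12 among them, 1 rose and 2 fell in CD34+Flt3hi against CD34-Flt3- cells. In CD34+Flt3- against CD34-Flt3- cells 1 of these 10 rose and 1 fell. The part of megakaryocytic or erythroid cells in the Pf4 and Gng11 differences was not tested. Nor was that of stromal or endothelial cells in the Cx3cl1 and Cxcl12 differences. The part of neutrophils, monocytes, macrophages, dendritic cells or T and NK cells in the chemokine and Ccr9 differences was not tested.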

How the data were processed

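Messenger RNA of 3 sorted LSK fractions, 2 samples each, was measured on Affymetrix arrays. Per the labels' protocols, cells were sorted into lysis buffer and RNA was amplified by 2 rounds of in vitro transcription. The deposited values are linear intensity values summarised by RMA, per the submitters' processing notes, which give no version. The linear scale was read from the values, which run between 6.50 and 24173. Log2 values were computed here from the deposited intensities. Of 45101 probe sets, 34945 carried a single symbol, and the one with the highest mean over the 6 arrays stood for each of 18193 genes. Of the 54 members, 20 had several probe sets. Probe sets with several symbols, 4 of them with members of the family, were left out, and Ccl19, Ccl21a, Ccl26, Ccl27b and Cxcr1 were not analysed here. limma 3.58.1 in R 4.3.3 was fitted to all 6 arrays, with an intensity trend and Benjamini-Hochberg adjustment over all genes at 0.05. Figures used matplotlib 3.10.9 and Python 3.11.15. The fit was tested on simulated data. A bound ("at least") sets the dimmer fraction at background. Genes described singly were those called in a comparison without a block, those above background with a difference of at least 2-fold, and the 6 brightest. Ccl5, Ccl6, Ccr7, Cxcl12 and Cxcr2 met none of these rules, and their values are given beside them. The members and lists were chosen with earlier results of these data known, and the sequences come from RefSeq. Alternatives were the background, probe set, fit, title code and left-out arrays. The fit of every probe set singly, the comparison of the 2 steps and that of code A with the other codes were added after seeing the data. The number of arrays limits the precision, and a permutation test of 2 against 2 could not go below 0.333.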

Additional observations from a re-analysis of the deposited data

How the results depend on the processing

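Ccl3 and Ccl9 stayed higher in CD34+Flt3hi cells than in CD34-Flt3- cells in all 19 alternative settings (4.17 to 6.06 and 2.48 to 4.10 on the log2 scale) and passed in each. Cxcl2 (2.38 to 4.06) and Ccl4 (1.04 to 1.48) also stayed higher in all 19, and passed in 18 and in 12. Ccr9 passed in 8 of 18, and its difference was -0.17 without probe sets marked for cross-hybridisation, by a probe set below background on every array. The count of members passing between CD34+Flt3hi and CD34-Flt3- cells, 5, was 3 in a fit of only the 4 arrays compared and 2 to 7 with an array left out. Between CD34+Flt3hi and CD34+Flt3- cells the count of 1 became 6 with the title codes as a fixed block, 4 with code A against the rest as a block, 3 with array weights, 4 in a fit of only the 4 arrays compared, and 0 to 4 with an array left out. Between CD34+Flt3- and CD34-Flt3- cells the count of 0 became 3 with either block, 2 at an adjusted p of 0.10, and 0 to 2 with an array left out. The fixed block fits the code C array exactly, so its comparisons with CD34-Flt3- cells rest on replicate 2 alone. The number of all genes called changed with these settings too. Between CD34+Flt3hi and CD34+Flt3- cells it was 111 without a block or weights. It became 670 with the title codes as a block and 274 with code A as a block. It was 293 with array weights and 300 in the fit of only the 4 arrays compared. Between CD34+Flt3hi and CD34-Flt3- cells it went from 1112 to 892 in such a fit. Changed counts of members were therefore not particular to this family. The causes were not tested. The labels carry no replicate numbers, so the title codes were the only pairing that could be fitted. The background decides how many members count as above it, 20 with the highest control probe set and 50 with the median one, against 39.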

Other observations

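Probe sets of Cx3cl1 (fractalkine, a membrane-bound chemokine of endothelium and neurons) disagreed. The one that stood for the gene, the brightest, differed by -0.26 between CD34+Flt3hi and CD34-Flt3- cells. Another read 4.65 and 4.69 in CD34+Flt3hi cells, 4.92 and 5.22 in CD34+Flt3- cells, and 6.11 and 6.10 in CD34-Flt3- cells, with no overlap between fractions. With every probe set fitted singly it was lower in CD34+Flt3hi cells than in CD34-Flt3- cells by -1.44 ± 0.26 SE (limma adjusted p = 0.0159, where 4.13% of probe sets passed). It was singled out after its values were seen. The remaining 2 probe sets differed by 0.14 and 0.16.

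Cxcl12, the stromal ligand of Cxcr4, has 2 further probe sets with differences of -0.85 and -1.22 between CD34+Flt3hi and CD34-Flt3- cells, against -0.20 for the one that stood for the gene. Neither passed when every probe set was fitted singly (limma adjusted p = 0.194 and 0.111).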
